A study of Trichoderma reesei QM6a with 24 samples.

Results

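Wild type mycelium of the cellulose-degrading filamentous fungus Trichoderma reesei, strain QM6a, was compared between constant light and constant darkness in cultures that all received 5 mM L-methionine. The comparison used 3 libraries in light and 3 in darkness, chosen by their labels for genotype, lighting and supplement, and they are 6 of the 24 libraries of the series. The others are the wild type without methionine, in light and in darkness, and the deletion strain QM6aΔ72004, which lacks the gene TRIREDRAFT_72004, under the same 4 conditions. All cultures grew at 28 °C in minimal medium with cellulose as carbon source; the sample labels give 72 h and the growth protocol 96 h. All 10879 gene models of the count table were considered, and 9308 had enough counts to be tested.

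Light is both a signal and a stress for filamentous fungi. Blue light is perceived by a complex of white collar proteins, called BLR1 and BLR2 in Trichoderma, which switches on genes for further photoreceptors and for DNA repair. In T. reesei one of these targets, ENV1, is a small photoreceptor that also links light to the nutrient signals that govern cellulase formation, and the G-protein and cAMP pathway carries such nutrient signals. Cellulase genes are switched on by the activator XYR1 when cellulose is present.

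Total counts ran from 13210988 to 17336019 in the 6 libraries. Levels are given in CPM, the read count of a model scaled to a common library size after trimmed-mean normalisation. On the first principal component of all wild type libraries (54.7% of the variance) the media stood apart. Without methionine, darkness lay at -98.8 to -91.2 and light at -42.3 to -30.3. With methionine, darkness (61.1 to 68) and light (67.1 to 69.1) overlapped. On the next components (30.8% and 8.7%) light and darkness stood apart in each medium. Replicates of the groups with methionine correlated at 0.989 to 0.994 on the log scale. More gene models had at least 1 count in darkness (9978, 10059 and 10094) than in light (9838, 9747 and 9859), also between the third replicates, which had 16455005 and 16443899 counts. The labels call the tissue mycelium. The hyphal hydrophobin gene hfb1 had 1 count in the 3 dark libraries and 0 in the 3 light libraries, so it could not serve as a marker of it, while the conidial hydrophobin gene hfb2 was read at 198 to 219 CPM in darkness and 144 to 227 CPM in light. The mating-type models mat1-1-2 and mat1-1-3 had 0 counts in both groups, and mat1-1-1 had 0 in darkness and 2 in light. The model TrE0303W, linked to the deleted locus, had 466, 579 and 529 counts in the dark and 371, 259 and 358 in the light wild type libraries, and 0 in each mutant library with methionine. Light and dark libraries carry separate runs of library numbers, in both strains and both media, so lighting and that numbering cannot be told apart. Whether replicates are separate cultures is not stated in the labels; if they are not, the p-values reflect technical spread.

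Light and dark libraries differed over a large part of the transcriptome, and most of the strong changes were falls in light. With methionine, 3643 of the 9308 tested models, or 39.1%, passed an adjusted p of 0.05 by edgeR's quasi-likelihood method (Benjamini-Hochberg adjusted). Of these, 1694 (18.2% of the tested models) were higher and 1949 (20.9%) lower in light. The balance shifted with the size of the change. At 2-fold or more, 427 models (4.59%) were higher and 799 (8.58%) lower, at 4-fold or more 117 (1.26%) against 381 (4.09%), and at 16-fold or more 26 (0.279%) against 136 (1.46%). At the extreme, 15 models had at least 20 counts in every dark library and 0 in every light library, and 0 models showed the reverse. In bulk RNA, fewer cells of a type and less RNA per cell cannot be told apart.

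**Figure D1:**
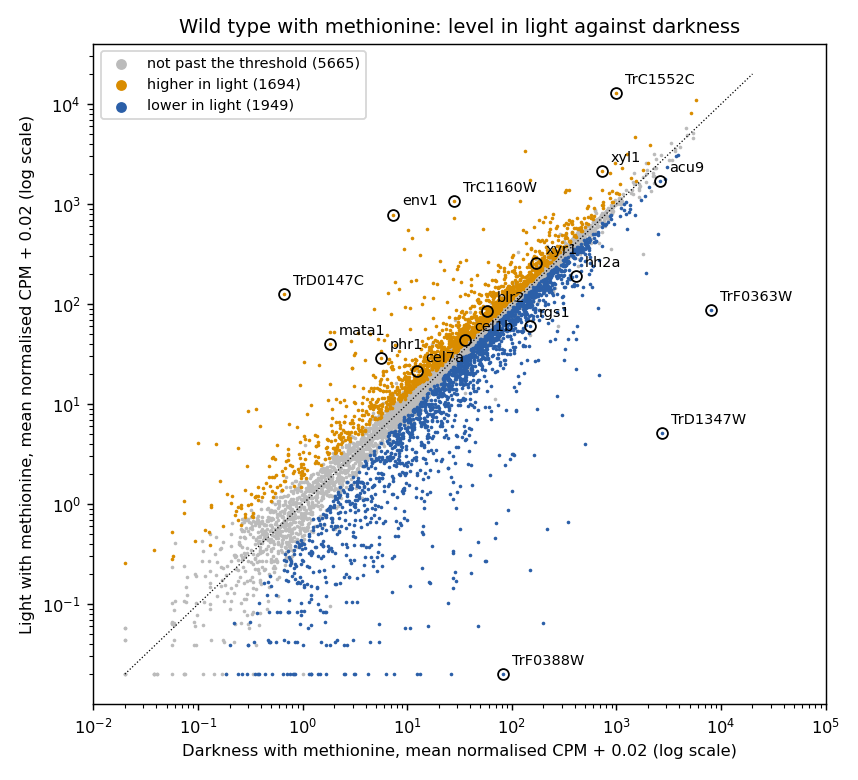
Mean normalised CPM of each tested gene model in darkness (x axis) and light (y axis), wild type with methionine, 3 libraries each, both axes logarithmic; colours mark the 1694 models higher and 1949 lower in light, and circles mark named genes. The cloud is lopsided: many models fall far below the diagonal to a few or no counts in light, while env1 and TrD0147C stand above it.

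The known light-response genes rose together. env1, the photoreceptor gene, was read at 5.38, 5.03 and 11.7 CPM in darkness and at 755, 864 and 741 CPM in light. Its groups were far apart, with a log2 fold change of 6.74 ± 0.268 (SE; edgeR, adjusted p = 1.05e-13), about 106 times the dark level. Each SE given with an edgeR value was back-calculated from the test statistic. phr1, the gene of the DNA repair enzyme photolyase, went from 5.69, 5.56 and 5.62 CPM to 29.1, 30.7 and 27.6 CPM (log2 fold change 2.37 ± 0.111 SE, edgeR adjusted p = 1.25e-12). blr2, which encodes a partner in the white collar complex, was less affected, at 54.1, 59.3 and 61.4 CPM in darkness and 84.9, 83.7 and 85.6 CPM in light (log2 fold change 0.54 ± 0.0548 SE, edgeR adjusted p = 1.11e-07). All 3 linked members of this list were thus higher, against 18.2% of all tested models, and blr1 was not linked to a gene model. The list was chosen with earlier results of these data known, so its direction is a description.

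The same 3 genes rose in light without methionine. There the log2 fold change was 7.12 for env1, 1.94 for phr1 and 0.93 for blr2. The lighting effect on env1 did not pass the test for a difference between media (edgeR, adjusted p = 0.343; difference -0.38 ± 0.325 SE), while those on phr1 (0.43 ± 0.149 SE, adjusted p = 0.0206) and blr2 (-0.39 ± 0.0769 SE, adjusted p = 0.000324) did, in opposite directions. The absolute level of phr1 was lower with methionine under both lightings, since the libraries without it had 13.6, 12.3 and 15.2 CPM in darkness and 53.9, 54.8 and 49.1 CPM in light. mata1, known here by its symbol alone, was also light-dependent, with 1.69, 1.43 and 2.24 CPM in darkness and 41.2, 42.9 and 35.4 CPM in light (log2 fold change 4.47 ± 0.216 SE, edgeR adjusted p = 2.11e-12).

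**Figure D2:**
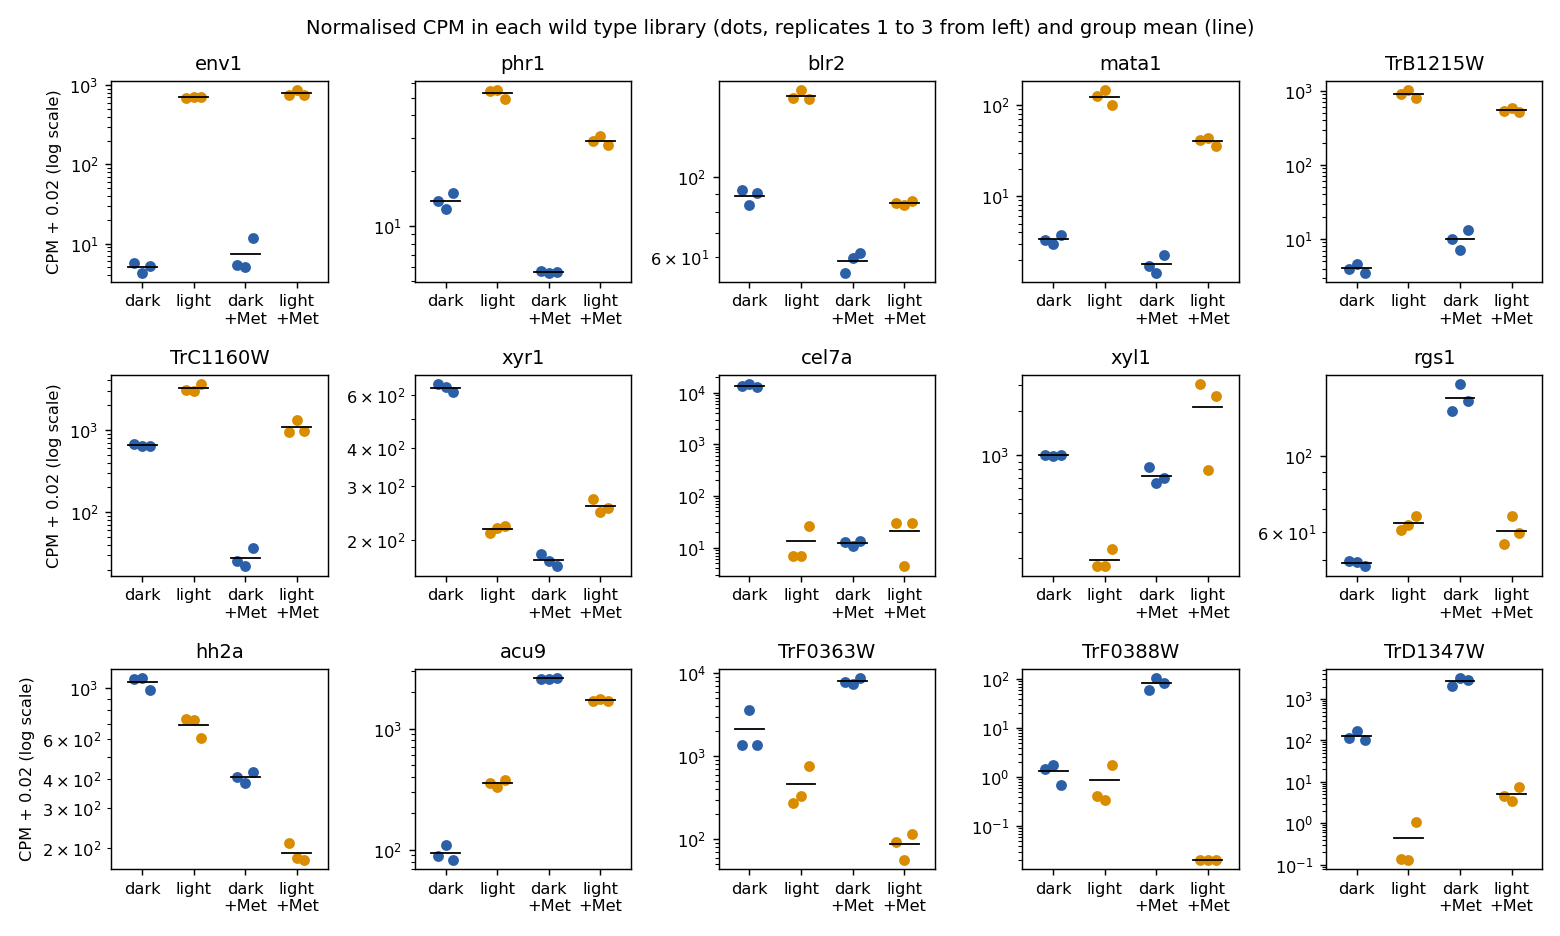
Normalised CPM (log axis, own scale in each panel, 0.02 added) of 15 named genes in each wild type library, replicates 1 to 3 from left to right, with group means as lines; blue marks darkness, orange light, and +Met the groups with methionine. env1 lies between 684 and 864 CPM in the light libraries of both media, cel7a is high only in the 3 dark libraries without methionine, and TrF0388W is at 0 counts in the 3 light libraries with methionine.

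The 12 models with the largest rises, among those with at least 10 CPM in light, rose by 24.9-fold to 188-fold. TrD0147C, the immediate neighbour of the endoglucanase gene cel12a, led them, with 0.181, 1.22 and 0.545 CPM in darkness and 98.9, 132 and 145 CPM in light. Its fold change was 188, and leaving out the second dark library raised the log2 value from 7.54 to 8.37. cel12a itself had 1 count in the 3 dark libraries and 0 in the 3 light libraries. TrE0391W, a model of only 180 coding bases, was read at 10.5, 10.4 and 379 CPM in darkness and 2770, 3710 and 3660 CPM in light. The third dark library stood apart there, and without it the log2 fold change was 8.33 in place of 4.67. In light without methionine that model reached 68900, 64200 and 33500 CPM. Of the 12, 11 were also called higher in light without methionine, against 32.5% of all tested models. In the mutant with methionine all 12 were called higher, against 19%, and without methionine 1 of the 12 was not. The exception was TrF0378C, described further on.

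Several of the strongest risers lay close together. Along the contig unitig_1_consensus, 17 tested models run from env1 (TrB1198C) to TrB1216C, at 3783643 to 3827903 in the coordinates of the count table. Of these, 7 rose at least 4-fold, 11 were called higher at all and 4 were called lower. The shares over all tested models were 1.26%, 18.2% and 20.9%. TrB1215W went from 9.86, 7.04 and 13.3 CPM to 533, 589 and 519 CPM. TrB1212W went from 16.2, 14.8 and 15.9 CPM to 559, 612 and 540 CPM. TrB1210C went from 27.3, 24.7 and 31.5 CPM to 728, 742 and 691 CPM. In none of these did a light library come near a dark one. They alternated with 2 models that fell at least 4-fold from low levels: TrB1207W lay at 0.726, 0.635 and 0.764 CPM in darkness, and TrB1209W at 0.907, 1.32 and 0.818 CPM. The risers among TrB1206C to TrB1210C lie on the opposite strand from those 2, and the counting used strand. This stretch was picked after its values were seen.

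A run of at least 4 neighbouring tested models that all rose 4-fold or more occurred once, from TrC1159C to TrC1163C at 3936714 to 3944363 on unitig_2_consensus. Its summed level was 47, 42.4 and 64.3 CPM in darkness and 1610, 2290 and 1840 CPM in light. Nearly all of it came from TrC1160W, TrC1161W and TrC1162W, 3 short models of 171, 261 and 162 coding bases on the same strand. TrC1160W, the strongest, had 25.3, 21.8 and 36.1 CPM in darkness and 951, 1300 and 979 CPM in light, a fold of 38.5. The first member, TrC1159C, had 2 counts in the dark libraries against 13 in the light ones, a ratio of 7.42 with a 95% counting interval of 1.68 to 67.8, and its call was lost on leaving out any dark library or the first or second light library. Without it the run still counts 4 models. mata1 and its neighbour TrC1145W, which went from 1.03, 1.96 and 2.4 CPM to 52.7, 55.2 and 50.6 CPM, lie on the same contig. From mata1 to TrC1163C, 7 of the 19 tested models rose at least 4-fold and none was called lower, against 1.26% and 20.9% of all tested models. This longer stretch, too, was picked after its values were seen.

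**Figure D3:**
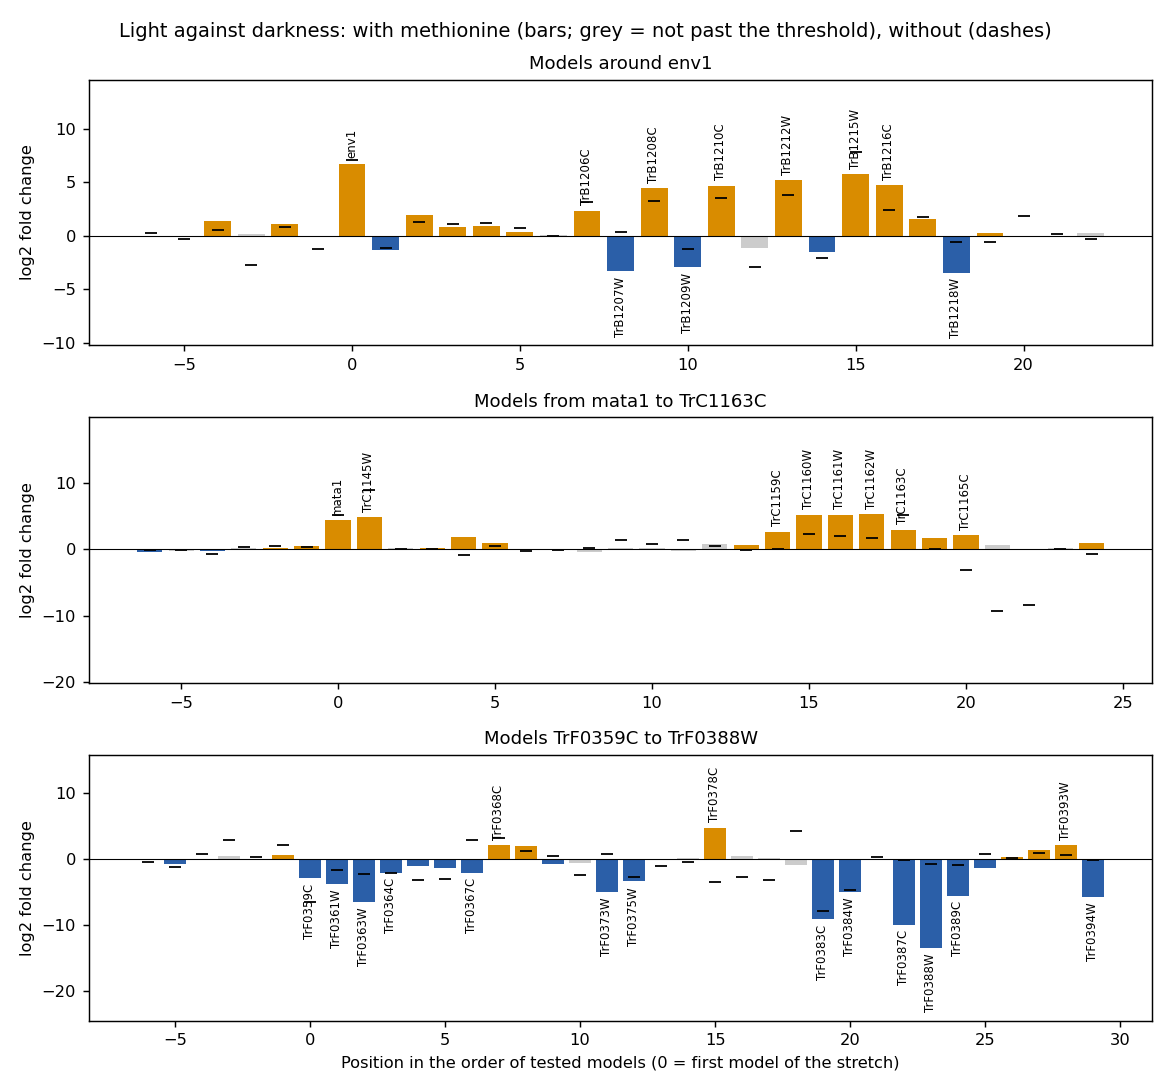
Log2 fold change in light against darkness with methionine (bars) and without (dashes) for tested gene models in their order along the contig, 3 stretches with 6 flanking models on each side; coloured bars passed the threshold, and models changed at least 4-fold are named. Around env1 7 strong bars of the stretch point up and 2 down, from mata1 to TrC1163C all 7 point up, and from TrF0359C to TrF0388W 11 point down and 2 up.

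The largest falls ended at or near no reads in light. TrF0388W was read at 60.7, 106 and 82.5 CPM in darkness, 4527 counts in all, and had 0 counts in each light library. Against a floor of 3 counts over the light group, that is at least 1320-fold lower. TrC0020W, TrG1069W and TrF0193C also had 0 counts in light and were at least 413-fold, 209-fold and 197-fold lower. TrD0190C had 207, 193 and 192 CPM in darkness and 2 counts in the light libraries together, a ratio of 4640 with a 95% counting interval of 1280 to 38300. The abundant model TrD1347W, of 384 coding bases, went from 2050, 3270 and 2920 CPM to 4.51, 3.37 and 7.59 CPM, a 523-fold drop (edgeR, adjusted p = 6.38e-13). All 12 of the largest falls were also called lower in the mutant with methionine, against 21.7% of all tested models. In the wild type without methionine 9 of the 12 were called lower, against 32.2%. None of these 12 models carries a gene symbol in the reference table.

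The largest single loss of reads was at TrF0363W, the model with most counts in darkness with methionine. It was read there at 7940, 7350 and 8820 CPM and in light at 92.1, 56 and 115 CPM, an 89.4-fold difference (log2 fold change -6.51 ± 0.567 SE, edgeR adjusted p = 1.28e-08). It belongs to the only run of at least 4 neighbours that all fell 4-fold or more, TrF0359C, TrF0361W, TrF0363W and TrF0364C, at 1260749 to 1275959 on unitig_5_consensus. The run's summed level was 8020, 7430 and 8920 CPM in darkness and 111, 69.7 and 137 CPM in light. From TrF0359C to TrF0388W, the run included, 11 of 24 tested models fell at least 4-fold and 2 rose at least 4-fold, again in a stretch chosen after its values were seen. Over the whole of unitig_5_consensus 27.3% of tested models were lower in light and 7.01% at least 4-fold lower, against 20.9% and 4.09% of all tested models. Models within 100 kb of a contig end were also more often lower by 4-fold or more, 10.9% of 311 against 3.86% of the 8997 farther in. The mean level was not held constant in these shares, and 13.2% of all tested models with a mean below 1 CPM were lower by 4-fold or more.

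Genes of ribosomal proteins, the building blocks of the translation machinery, shifted down by small amounts. Of 29 linked ribosomal protein genes, 17 were lower in light and none higher, with a median log2 fold change of -0.32 against 0.00 for all tested models and 20.9% of them lower. rpl8 went from 472, 442 and 457 CPM to 361, 310 and 338 CPM (log2 fold change -0.44 ± 0.0878 SE, edgeR adjusted p = 0.000404). rpl12 went from 460, 435 and 433 CPM to 345, 295 and 350 CPM, and the groups did not overlap for either gene. The smallest shift, in rps22, was -0.17 and did not pass (adjusted p = 0.235). The count was 10 without the second light library, 13 without the second dark or the third dark library, and 25 when the contrast's 2 groups were fitted alone. Without methionine it was 4 of 29, against 32.2% of all tested models lower. In the mutant with methionine it was 8 of 29, against 21.7%.

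Core histone genes fell more. hh2a, for histone H2A, was at 411, 385 and 430 CPM in darkness and 210, 182 and 177 CPM in light (log2 fold change -1.11 ± 0.154 SE, edgeR adjusted p = 7.59e-06). hh2b, its neighbour, for histone H2B, was at 505, 468 and 518 CPM and then 288, 257 and 255 CPM. hh3, for histone H3, was at 1250, 1200 and 1290 CPM and then 836, 742 and 808 CPM. The light libraries were below every dark library for all 3. hh4.2, a histone H4 gene, did not pass (log2 fold change -0.17, adjusted p = 0.223). This count of 3 of 4 held in each of the 11 alternative settings tried, and 20.9% of all tested models were lower. Without methionine 4 of 4 were lower, against 32.2% of all tested models.

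In carbon metabolism, 3 of 5 genes of glycolysis and gluconeogenesis and 3 of 4 of the glyoxylate and citrate cycles were lower in light, and none was higher, against 20.9% of all tested models lower and 18.2% higher. eno1, for the glycolytic enzyme enolase, went from 1510, 1290 and 1250 CPM to 916, 895 and 868 CPM (log2 fold change -0.60 ± 0.126 SE, edgeR adjusted p = 0.000709). hxk1, for hexokinase, and pyc1, for pyruvate carboxylase, fell by 0.49 and 0.28 on the log2 scale. acu9, whose Neurospora namesake encodes malate synthase, went from 2560, 2580 and 2620 CPM to 1670, 1760 and 1680 CPM (log2 fold change -0.60 ± 0.0883 SE, edgeR adjusted p = 1.38e-05). acu3, whose Neurospora namesake encodes isocitrate lyase of the glyoxylate cycle, had 2020, 2050 and 2050 CPM in darkness and 1490, 1510 and 1410 CPM in light. Both changed the other way without methionine, where their log2 fold changes were 1.92 and 2.12. Their levels there were also far lower, with acu9 at 88.9, 110 and 82 CPM in darkness and 357, 327 and 374 CPM in light.

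**Figure D4:**
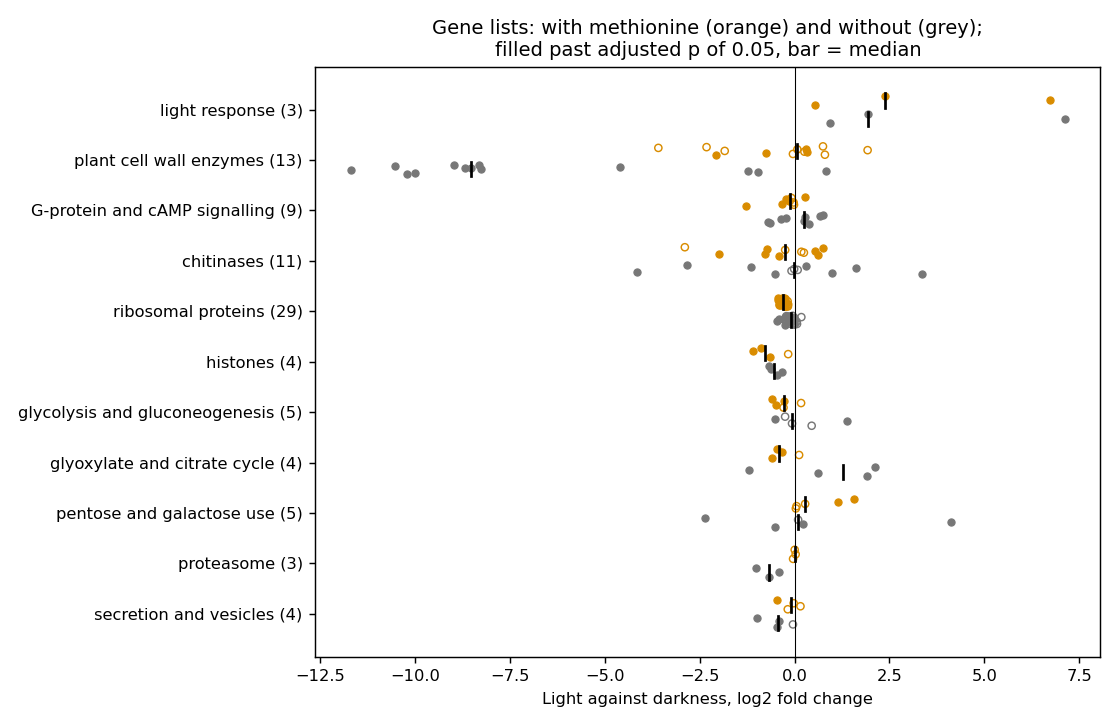
Log2 fold change in light against darkness of the tested members of 11 gene lists, with methionine (orange) and without (grey), the number of members in brackets; filled points passed an adjusted p of 0.05 and black bars are medians. Ribosomal protein and histone genes sit below 0 with methionine, and plant cell wall enzymes spread from -3.59 to 1.92 with methionine, mostly as open points, and lie mostly far below 0 without it.

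Genes of plant cell wall degrading enzymes were called with methionine at shares near those of all tested models. Of 13 linked genes, 2 were higher, 2 lower and 9 did not pass, against 18.2% higher and 20.9% lower over all tested models, with a median log2 fold change of 0.07; over the alternatives 2 to 4 were higher and 1 to 3 lower. Their summed level was 321, 278 and 289 CPM in darkness and 304, 273 and 304 CPM in light. Among them, cel12a had 1 count in the dark libraries together and 0 in the light ones. For cel7b these counts were 18 and 1, for cip2 13 and 12, and for cel61b 30 and 5. So few counts leave little room for a call. Without methionine, 12 of the 13 were lower in light, against 32.2% of all tested models, and the sum went from 22100, 24500 and 21000 CPM to 1130, 1180 and 979 CPM. cel7a, for the main cellobiohydrolase, showed the gap best. With methionine it was read at 12.9, 10.5 and 13.6 CPM in darkness and 29.8, 4.28 and 30 CPM in light, which overlapped (log2 fold change 0.80 ± 0.619 SE, edgeR adjusted p = 0.331). Without methionine it had 13400, 14800 and 12700 CPM in darkness and 6.83, 6.78 and 26.4 CPM in light. The difference between the lighting effects was called for 10 of the 13 genes, 9 of them upward and 1 downward. Of all tested models, 24.3% were called upward and 25.3% downward in that test.

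Among the enzymes that did respond with methionine, cel1b, a beta-glucosidase gene, rose from 38.5, 33.6 and 34.8 CPM to 42.1, 44.5 and 45 CPM (log2 fold change 0.30 ± 0.0823 SE, edgeR adjusted p = 0.00589). axe2, an acetyl xylan esterase gene, rose by a log2 value of 0.33. cel5b, an endoglucanase gene, was the largest of the list by level in darkness and fell from 122, 111 and 105 CPM to 66.8, 70.3 and 64.8 CPM (log2 fold change -0.74 ± 0.171 SE, edgeR adjusted p = 0.00152). A further call, that of cel5a, was weak. It had 2.06, 0.9 and 1.69 CPM in darkness and 0.523, 0.21 and 0.342 CPM in light, and its call was lost in 6 of 11 alternatives, among them the replicate block and each omitted light library. The activator gene xyr1 rose from 179, 170 and 163 CPM to 272, 247 and 254 CPM (log2 fold change 0.60 ± 0.0724 SE, edgeR adjusted p = 1.32e-06). Without methionine it fell, from 653, 637 and 612 CPM to 211, 218 and 221 CPM, and the difference between media was 2.14 ± 0.103 SE (adjusted p = 2.56e-12).

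In the G-protein and cAMP pathway the regulator rgs1 stood out. The protein family of RGS regulators shortens the signal of G-protein alpha subunits. rgs1 went from 135, 162 and 145 CPM in darkness to 55.6, 67 and 59.5 CPM in light (log2 fold change -1.28 ± 0.105 SE, edgeR adjusted p = 5.14e-09), with no overlap. Without methionine it rose slightly, from 49.5, 49 and 47.7 CPM to 60.9, 62.9 and 67.1 CPM, and the difference between media passed the test (-1.67 ± 0.148 SE, adjusted p = 1.56e-08). The libraries in light thus lay between 55.6 and 67.1 CPM in both media, while the dark libraries of the media did not overlap. The alpha subunit genes gna1, gna2 and gna3 and the beta subunit gene tgb1 did not pass, with log2 fold changes of -0.01, -0.08, -0.03 and -0.13. Of the protein kinase A genes, the catalytic pkac2 fell by 0.32 on the log2 scale. The catalytic pkac1 (-0.18) and the regulatory pkar1 (-0.22) were called lower, but pkac1 lost its call without the third light, the second dark or the third dark library, and pkar1 without the first light, the third light, the first dark or the second dark library. acy1, for adenylate cyclase, was called higher at 0.27, a call lost without the second light or the third dark library.

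Other functions with named genes showed mixed responses. Of 11 tested chitinase genes of family 18, 3 were higher, 4 lower and 4 did not pass, against 18.2% higher and 20.9% lower over all tested models; without single libraries 1 to 3 were higher and 2 to 4 lower. chi18-rel2 rose from 51.6, 56.9 and 56.3 CPM to 83.6, 94.2 and 99.4 CPM (log2 change 0.75 ± 0.0717 SE, edgeR adjusted p = 4.94e-08). Conversely, chi18-13 fell from 12.1, 12.4 and 13.1 CPM to 7.79, 7.92 and 6.16 CPM (log2 fold change -0.78 ± 0.134 SE, edgeR adjusted p = 8.69e-05). Of the hydrophobin genes, whose products coat fungal surfaces, hfb2 overlapped between groups (log2 fold change -0.14, adjusted p = 0.787). hfb3 fell from 116, 102 and 87.3 CPM to 64.8, 52.9 and 53 CPM, a call lost without the second light, the third light, the first dark or the second dark library. sod1, for a superoxide dismutase, went from 1110, 1220 and 1250 CPM to 866, 893 and 850 CPM (log2 fold change -0.46 ± 0.0885 SE, edgeR adjusted p = 0.000295). sso1, for a plasma membrane SNARE protein of secretion, fell from 145, 154 and 147 CPM to 105, 110 and 107 CPM, and the other 3 tested secretion genes did not pass. tmk3, for a stress-activated MAP kinase, rose from 203, 203 and 203 CPM to 317, 296 and 275 CPM (log2 fold change 0.54 ± 0.0722 SE, edgeR adjusted p = 4.29e-06). None of the 3 tested proteasome genes passed, against 39.1% of all tested models. All 3 were lower in light without methionine, against 32.2% of all tested models. Of the 165 tested models with a symbol, 22 were higher and 50 lower, against 18.2% and 20.9% of all tested models.

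The most abundant messages in light included a model that varied strongly between libraries. TrC1552C had 1400, 750 and 806 CPM in darkness and 21000, 2880 and 14500 CPM in light (log2 fold change 3.70 ± 0.967 SE, edgeR adjusted p = 0.00434). All light libraries were above all dark ones, but the first was several times the second. xyl1, for the xylose reductase of pentose use, followed the same order, with 3060, 789 and 2550 CPM in light against 835, 647 and 694 CPM in darkness, so the groups overlapped. Its call (log2 fold change 1.56, adjusted p = 0.0139) was lost without the first light or the second dark library. xdh1, for xylitol dehydrogenase, had 399, 119 and 323 CPM in light against 125, 124 and 133 CPM in darkness, and its call (1.14, adjusted p = 0.0479) was lost in 7 of 11 alternatives, each omitted dark library included. Among the 2257 models of at least 100 CPM in light, 8 had an SD above 0.5 of the mean, and in all 8 the first library was highest and the second lowest. These 8, which were singled out after their values were seen, are TrC1552C, xyl1, xdh1, TrA0210C, TrB1918C, TrD0036W, TrE0434C and TrG0018C. In darkness 18 of 2244 such models passed the same mark, 14 highest in the first library and 17 lowest in the third.

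TrD1010C, TrE0124C and tef1a were among the 5 models with most counts in each group, and nmt1 was among those of the light group. TrD1010C had 6010, 5960 and 5430 CPM in darkness and 10600, 11600 and 10600 CPM in light (log2 fold change 0.92 ± 0.172 SE, edgeR adjusted p = 0.000225). TrE0124C had 5730, 5090 and 4810 CPM and 6940, 8990 and 8280 CPM, a log2 fold change of 0.63. tef1a, for translation elongation factor 1-alpha, had 5590, 5190 and 5450 CPM and 5600, 4780 and 5110 CPM, which overlapped. nmt1, whose fission yeast namesake acts in thiamine synthesis, had 4940, 4700 and 4330 CPM and 5550, 6090 and 5670 CPM and did not pass (adjusted p = 0.575).

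The difference between light and darkness depended on the medium for many models. Without methionine, 6029 models (64.8%) differed between light and darkness, 3029 higher (32.5%) and 3000 lower (32.2%), more than with it. Of the 1694 models higher in light with methionine, 959 (56.6%) were higher also without it, 321 (18.9%) lower, and the rest not called. Of the 1949 lower with methionine, 1033 (53%) were lower also without it and 299 (15.3%) higher. A test of the difference itself called 4618 models (49.6%), 2266 with a more positive and 2352 with a more negative lighting effect under methionine. Among the 1992 models called in the same direction in both media, that difference was called for 917, of which 744 had the larger effect without methionine and 173 with it. Across all tested models the log2 fold changes of the 2 media correlated at r = 0.45, and at r = 0.62 over the 498 models called with at least 4-fold change with methionine. These are correlations across genes of 6 against 6 libraries, and genes are not independent replicates.

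**Figure D5:**
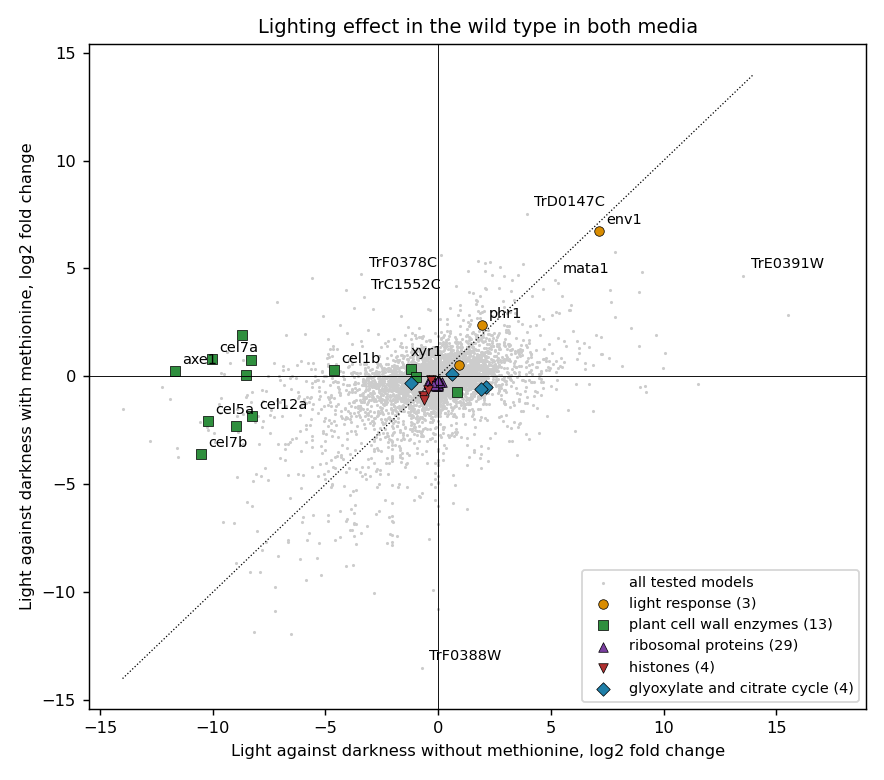
Log2 fold change in light against darkness without methionine (x axis) and with methionine (y axis) for all tested models of the wild type, with 5 gene lists marked; the dotted line is equality. env1, phr1 and blr2 lie in the upper right, most plant cell wall enzymes lie at the far left, between -3.59 and 1.92 on the y axis, where fitted values of genes with few counts such as cel12a are no bounds, and TrF0388W lies at the bottom, near 0 on the x axis.

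The largest differences between media had opposite sources. TrF0388W and TrF0387C, read in darkness with methionine at 60.7, 106 and 82.5 CPM and at 43.7, 52.1 and 45.9 CPM, had group means near 1 CPM under both lightings without it, and their falls in light were called with methionine. TrD1022C went the other way, from 0.242, 0.212 and 2.78 CPM to 7.79, 8.07 and 7.93 CPM with methionine, and from 0 counts in darkness to 405, 378 and 219 CPM in light without it. Without the third dark library its log2 fold change with methionine was 5.09 in place of 2.85. On the positive side, axe1, an acetyl xylan esterase gene, TrE0670C beside it, and TrG1206C were high in darkness without methionine, with means of 618, 1590 and 4220 CPM, and did not pass the lighting test with it. TrF0378C rose with methionine from 2.24, 2.01 and 1.69 CPM to 50.4, 56.7 and 50.3 CPM and fell without it from 47.8, 51.5 and 51.7 CPM to 1.88, 1.02 and 12.2 CPM. Its difference between media was 8.13 ± 0.712 SE on the log2 scale (edgeR, adjusted p = 1.29e-08).

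In the deletion strain with methionine, 3785 models (40.7%) were called, 1766 higher (19%) and 2019 lower (21.7%). Of the wild type's 1694 higher models 1328 (78.4%) were called higher in the mutant, and of its 1949 lower models 1546 (79.3%) were called lower. The strains share no library, but their libraries come from the same number runs. The log2 fold changes correlated at r = 0.93 across all tested models, and all 498 models called with at least 4-fold change in the wild type had the same sign in the mutant. env1 had 5.85, 6.96 and 5.48 CPM in darkness and 766, 749 and 664 CPM in light there. In edgeR's test of the difference between strains, 0 models passed, 611 had an unadjusted p below 0.05, and DESeq2 called 20. The models called in opposite directions were 2, TrE0933W and TrG0815W, named after their values were seen, with small wild type log2 fold changes of 0.29 and 0.23, calls that were lost in some alternatives.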

How the data were processed

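RNA of mycelium was sequenced from 24 libraries, 3 in each of 8 groups, with a stranded kit after ribosomal RNA depletion, per the labels' protocols. The deposited table holds raw read counts per gene model, which the authors made with featureCounts 2.0.1 in reverse-stranded, paired-end mode, per the file headers; alignment was with HISAT2 2.2.1, per the submitters' processing notes. Trimming and genome build are not given in the sources used here. Coordinates are those of the count table, and 94.7% of model lengths are multiples of 3, so lengths are coding lengths.

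All 24 libraries were fitted together in edgeR 4.0.16 (R 4.3.3; quasi-likelihood test, TMM factors 0.877 to 1.114, filterByExpr with a minimum count of 10, Benjamini-Hochberg adjustment at 0.05), with 1 mean per group. The tests compared light with darkness within a strain and medium, and the lighting effects between media and between strains. Each SE is the absolute log2 value divided by the square root of the F statistic of its test, since that test returns no SE. DESeq2 1.42.0 was an alternative. Both were also run on simulated counts with the same spread for every model and few changed models. Spreads differ between models here and many models changed, so that run does not measure error rates in these data. CPM uses TMM-scaled library sizes; 3 counts served as the floor, intervals are 95% exact binomial intervals, and both cover counting error only.

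Gene symbols came from the RefSeq table of assembly v2.0, whose coordinates differ. Models were linked where spans and neighbours were identical (4012) or where distances to linked neighbours matched to the base (3084), which linked 7096 of 10879 models (65.2%), 174 with a symbol. Of 400 links by identical span that were held out and sought again by distance, 361 were found and 360 were right. Links by distance between genes of unequal span were not covered by that check. Of the 174 models with a symbol, 40 were linked by span and the rest by distance. Models without a symbol are given no function.

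Named models were the 12 largest rises and falls past the threshold with at least 10 CPM and no overlap, the 5 with most counts per group, models with a symbol or in a list, stretches of 4 or more adjacent models all changed 4-fold or more, and the 5 largest differences between media each way; others are marked where they appear. The models, lists and tests were chosen with earlier results of these data known, and the histone, glycolysis, glyoxylate, pentose and proteasome lists were added after the values were available. Same-numbered light and dark libraries deviated with correlations of -0.02, 0.12 and 0.11, so the numbers were not taken as pairs. The other deposited file cites literature alone and was not used.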

Additional observations from a re-analysis of the deposited data

Results flagged for a closer look

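For 16 of the 207 tested named models, the lighting effect of the wild type was called in opposite directions in the media. The difference between media was also called for these 16 (edgeR, adjusted p below the threshold). Of all 9308 tested models, 620 were called in opposite directions, before the difference was asked for. That share is near the share among the named models. The values that follow are the effect with methionine minus the effect without, on the log2 scale. It was more positive with methionine for xyr1 (2.14), xyl1 (3.93), cel1b (4.91), axe2 (1.55), ire1 (0.51), TrC1552C (6.98), TrF0378C (8.13), TrE0933W (1.52) and TrG0815W (1.03). It was more negative with methionine for acu3 (-2.59), acu9 (-2.52), rgs1 (-1.67), pkar1 (-0.49), mkk1 (-0.72), cel5b (-1.56) and chi18-13 (-1.77). The call of mkk1 with methionine was lost without the first light or the second dark library, and those of xyl1, pkar1, TrE0933W and TrG0815W were also lost without single libraries. Sets of 3 libraries are too small for a test of single outlying libraries. Lighting and the library number runs cannot be told apart in either medium.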

How the results depend on the processing

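No named model past the threshold changed sign under the alternatives; some models that did not pass did, among them TrC1533C (-0.37, and 1.93 without the third dark library), cip2 (0.07 to -0.6) and axe1 (0.26 to -0.17). With methionine the wild type count stayed between 3088 and 3952 of the tested models, from 3088 to 3316 without single libraries and 3567 with the replicate block, and the share higher among calls was 41.9% to 46.9%. Of 107 named calls, 78 passed in all 11 alternatives and 29 were lost in at least 1; of 100 named models not called, 25 passed in at least 1. The replicate block assumes that same-numbered light and dark libraries belong together, which the labels do not state. Their deviations correlated weakly (-0.02, 0.12 and 0.11). Light libraries 2 and 3 matched the dark library of their own number best, while light library 1 matched dark library 3 best. The block lost the calls of rps26, xdh1 and cel5a and gained that of cel1a. The difference between strains, with 0 calls, gave 20 in DESeq2 (3 higher, 17 lower); without single libraries it ranged from 0 to 17 calls, all lower, with 17 without the second light wild type library and 1 without the first light or the third dark mutant library. The cause was not tested. Same-numbered dark libraries of the strains deviated together (0.37, 0.14 and 0.47), the light ones did not (-0.21, 0.06 and -0.06). At 13210988 to 17336019 counts per library, levels below 0.159 to 0.21 CPM rest on under 3 counts, and small fold changes of such models cannot be read.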
